A study of Mus musculus with 28 samples.

Results

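The 61 genes described here were set apart by their course in P19, an established mouse line of embryonal carcinoma that is pluripotent, as its cells became neural in retinoic acid. Each was a protein-coding gene whose mean level was at least 10 CPM (the estimated count of a gene over the library total, times 1000000) at day 0, at most 1/8 of that at day 4, and again at least 1 CPM and at least 3 times the day 4 level at day 8. They were 61 of 9436 protein-coding genes with at least 10 CPM at day 0, out of 21387 protein-coding genes and 55385 gene identifiers in all. Of the 9436 genes, 264 (2.8%) were at 1/8 or less at day 4, and 203 of those did not meet the day 8 condition. Symbols beginning with Col, Kcn or Wnt were to be left out, which removed 0 genes. The day 0, day 4 and day 8 libraries chose the genes, so their values are given as a description and carry no test.

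P19 cells in retinoic acid leave the pluripotent state and pass through neural stem and progenitor cells on the way to neurons. Pluripotent cells of this kind express the Pou5f1 network of transcription and RNA-binding factors together with Nodal, a secreted signal of the TGF-beta family whose co-receptor, antagonists and nuclear partner are expressed in the same cells. Neurons in turn express neuropeptides, transmitter receptors and ion channel subunits that serve their signalling.

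RNA was sequenced from 10 libraries in 5 groups of 2, described by the series as biological replicates. Day 0 cells were untreated P19 cells. In the day 2 arm, P19 cells had 2 days of 1 µM retinoic acid, and on day 1 received 1 µL of either MS-275 (stock of 10 mM), which inhibits class I histone deacetylases, or DMSO, its solvent. Day 4 cells, labelled neural stem and progenitor cells, had 4 days of 1 µM retinoic acid, and day 8 cells, labelled neurons, were then replated for another 4 days in neuronal medium with the B27 supplement. Totals lay between 18115926 and 19586374 estimated counts per library. Native ChIP-seq of acetylated H3K9 (H3K9ac), crotonylated H3K9 (H3K9cr) and lactylated H3K18 (H3K18la) gave 1 peak list per mark in each day 2 arm and 2 at day 4, and ATAC-seq, a measure of open chromatin, gave 2 at day 4. All cells descend from the same line and are bulk samples, in which fewer cells of a type and less RNA per cell cannot be told apart.

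The labelled stages carried their markers, but progenitor and neuronal markers were both high at day 4 and at day 8. The summed level of 27 neural stem and progenitor markers was 4715 and 5051 CPM in the day 4 libraries and 3572 and 3615 CPM in the day 8 libraries. Vim alone averaged 1700 CPM at day 4. The 32 neuronal markers summed to 4665 and 4939 CPM at day 4 and 6799 and 7224 CPM at day 8, against 752 and 767 CPM at day 0. Pluripotency markers summed to 7129 and 7164 CPM at day 0, 1140 CPM in both day 2 DMSO libraries, 889 and 895 CPM at day 4 and 921 and 970 CPM at day 8. Of the 32 pluripotency markers, 25 had a mean of at least 1 CPM at day 8, against 17 at day 4, and only Zfp42 was at 0 in both day 8 libraries. The rule chose 10 of these markers and required at least 1 CPM of them at day 8. Among those, Utf1, Tdgf1, L1td1 and Zscan10 averaged under 1 CPM at day 4. The day 8 count and sum of this list are therefore partly set by the choice of the genes. Markers of other cell types were present too: the 18 fibroblast and mesenchyme markers summed to 1458 and 1495 CPM at day 8 and to 2572 and 2643 CPM at day 4. Of the day 8 level, Vim, which the neural stem and progenitor list also holds, gave 786 CPM and Fn1 435 CPM. The 30 epithelial markers summed to 123 and 125 CPM at day 8. Whether a few cells of another type carried the day 8 values of any gene below was not tested.

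Promoters are shown for 5 genes that stand for the courses described below. They are the pluripotency regulators Pou5f1 and Utf1, the signal Nodal, the surface protein gene Prtg and the neuropeptide gene Npy. Each runs 5′ to 3′ from 250 bases before to 50 bases after the RefSeq start in GRCm38.p6, on the plus strand in all 5. Capitals mark the short motifs that were found in it on either strand, which are GC boxes with the letters GGGCGG, the CCAAT box and, at the far end of the Nodal promoter, a site known to be bound by Sox transcription factors with the letters AACAAAG. The windows are chr17:35505782-35506081 (Pou5f1), chr7:139943606-139943905 (Utf1), chr10:61417722-61418021 (Nodal), chr9:72807024-72807323 (Prtg) and chr6:49822460-49822759 (Npy).
Pou5f1: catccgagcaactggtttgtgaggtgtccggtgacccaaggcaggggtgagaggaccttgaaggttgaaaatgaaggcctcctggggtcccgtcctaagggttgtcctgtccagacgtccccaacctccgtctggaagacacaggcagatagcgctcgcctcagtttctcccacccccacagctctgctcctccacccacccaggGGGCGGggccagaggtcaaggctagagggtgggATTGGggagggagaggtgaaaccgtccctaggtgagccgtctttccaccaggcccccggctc
Utf1: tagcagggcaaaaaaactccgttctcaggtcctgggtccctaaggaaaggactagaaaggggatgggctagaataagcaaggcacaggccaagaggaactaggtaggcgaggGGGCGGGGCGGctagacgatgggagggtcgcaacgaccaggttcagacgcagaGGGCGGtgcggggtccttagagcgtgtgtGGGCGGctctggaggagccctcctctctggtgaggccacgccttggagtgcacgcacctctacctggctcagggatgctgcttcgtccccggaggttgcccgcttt
Nodal: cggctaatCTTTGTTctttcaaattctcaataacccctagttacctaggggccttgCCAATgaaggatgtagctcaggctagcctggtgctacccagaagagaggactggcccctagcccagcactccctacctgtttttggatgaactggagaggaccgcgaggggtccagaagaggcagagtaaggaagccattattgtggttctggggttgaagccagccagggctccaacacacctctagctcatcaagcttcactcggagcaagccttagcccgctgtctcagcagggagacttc
Prtg: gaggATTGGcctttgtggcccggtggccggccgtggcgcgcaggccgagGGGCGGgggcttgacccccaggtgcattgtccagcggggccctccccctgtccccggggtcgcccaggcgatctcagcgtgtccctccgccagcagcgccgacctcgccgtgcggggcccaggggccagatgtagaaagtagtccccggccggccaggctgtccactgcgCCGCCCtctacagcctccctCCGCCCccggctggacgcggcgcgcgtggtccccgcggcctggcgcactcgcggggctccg
Npy: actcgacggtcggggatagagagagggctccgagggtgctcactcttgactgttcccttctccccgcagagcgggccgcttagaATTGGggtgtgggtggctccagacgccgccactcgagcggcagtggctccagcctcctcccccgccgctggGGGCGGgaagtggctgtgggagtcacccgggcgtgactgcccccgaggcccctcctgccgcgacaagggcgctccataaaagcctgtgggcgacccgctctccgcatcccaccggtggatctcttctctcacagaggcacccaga

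The spread of the day 8 return was wide. Day 8 means lay between 0.81% and 85.6% of day 0 with a median of 16.3%, after day 4 means with a median of 2.89%. Only 8 genes came back to at least 50% of day 0, and 19 stayed under 10%. No gene had both day 8 libraries above both day 0 libraries, which held for 38.9% of the 9436 genes with at least 10 CPM at day 0. In 60 genes both day 8 libraries lay below both day 0 libraries (52.1% of the 9436 genes), and the exception was Npy. Set against day 2 with DMSO, both day 8 libraries were higher in 29 genes (38.8%). At day 2 with DMSO the median was 11.1% of day 0, so that much of the loss was in place after 2 days in retinoic acid. Both DMSO libraries lay below both day 0 libraries in 56 genes (47.5%) and above both day 4 libraries in 47 genes (49.8%).

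**Figure D1:**
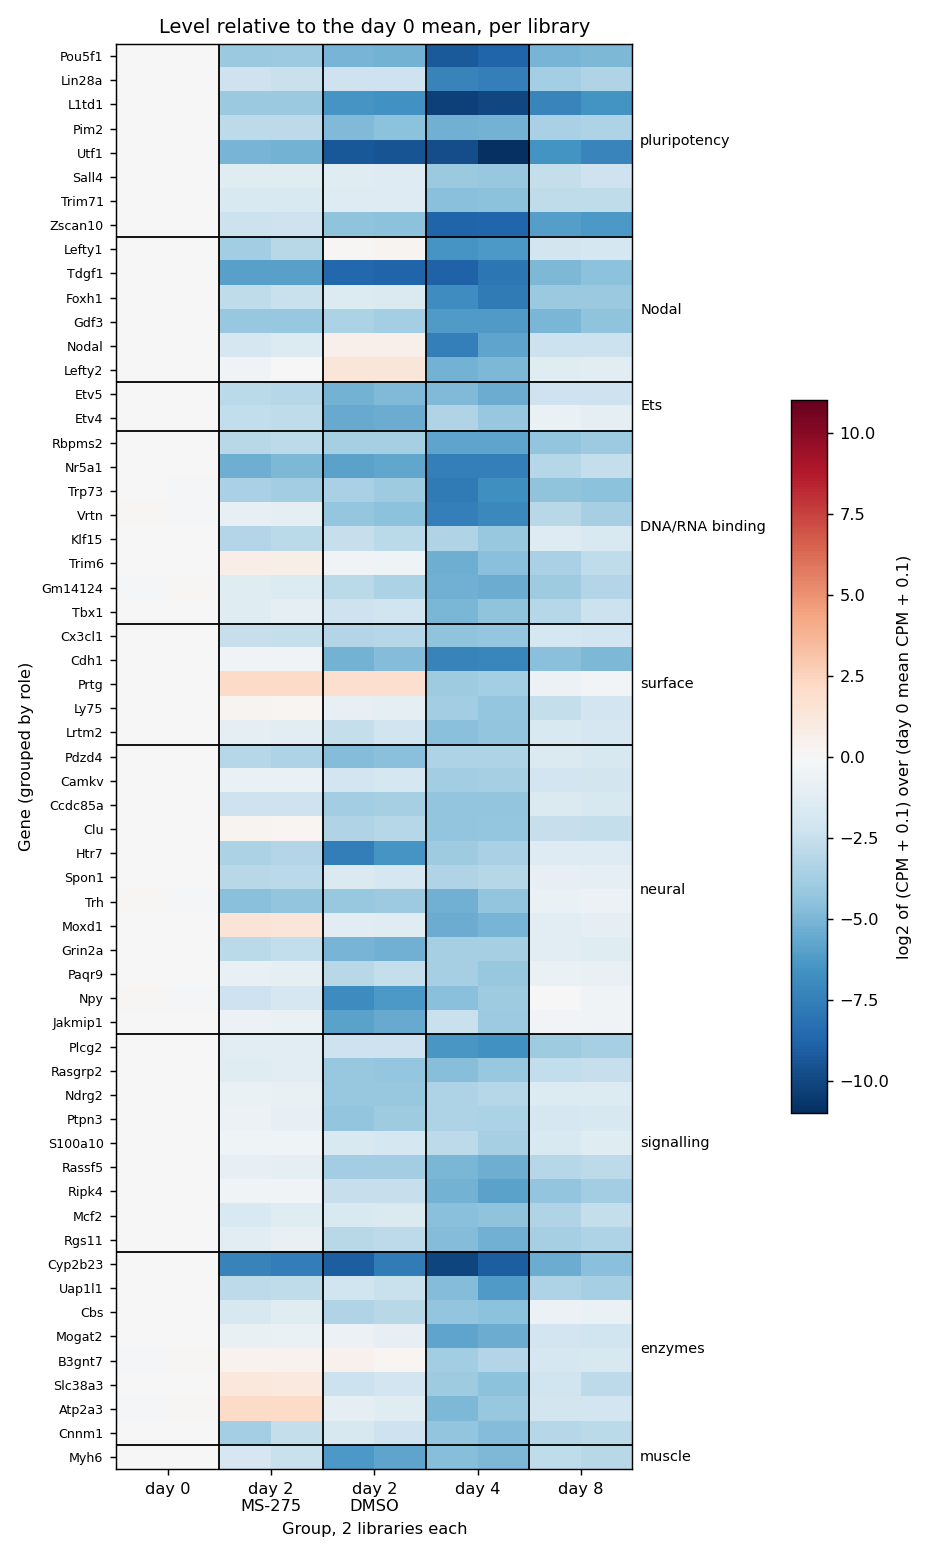
Heat map of 59 of the 61 genes in each of the 10 RNA libraries, as log2 of the level plus 0.1 CPM over the day 0 mean plus 0.1 CPM, with genes grouped by role and 2 columns per group (day 0, day 2 with MS-275, day 2 with DMSO, day 4, day 8). Day 4 columns are blue for all 59 genes drawn, while the day 2 DMSO columns of Prtg, Nodal, Lefty1, Lefty2 and B3gnt7 are at or above the day 0 level.

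The limits of the rule pass through a continuum. Tbx1 (10.1 CPM) and Lefty2 (11.1 CPM) were just above the day 0 limit, with Cdkl2 (9.92 CPM) and Eomes (9.41 CPM) just under it. Jakmip1 (8.86) and Spon1 (9.43) had the smallest ratios of day 0 over day 4 admitted, and Tmem151a (7.27) and Camk2b (7.14) the largest left out. Rgs11 and Ripk4 (1.03 CPM each) just reached the day 8 minimum, which Cdk18 (0.93 CPM) and Actc1 (0.60 CPM) missed. Gdf3 (3.01 times day 4) and Rbpms2 (3.08 times) just met the condition on return, and Alpl (2.98 times) and Grb10 (2.95 times) did not.

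A 32-gene pluripotency list had 10 genes among the 61, which is 10 of the 13 genes of that list that were lost by day 4. The other 3 were Dppa4, Dnmt3b and Dnmt3l, which were at 0.575%, 2.68% and 0.176% of day 0 at day 8. This role had the lowest median return of the roles with more than 1 gene. The 8 of the 10 that are not Nodal pathway genes had a median day 8 level of 5.93% of day 0, with a range of 0.81% to 18.4%.

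Pou5f1, which encodes Oct4, the transcription factor at the head of the pluripotency network, had 1398 and 1372 CPM at day 0, 39.0 and 36.9 CPM at day 2 with DMSO, 2.26 and 2.91 CPM at day 4, and 39.3 and 44.8 CPM at day 8. The day 8 libraries were thus back at the day 2 level and far under day 0, at 3.04% of it. Utf1, a chromatin-bound factor of undifferentiated cells, had 326 and 307 CPM at day 0, 0.41 and 0.33 CPM at day 2 with DMSO, 0.26 and 0.05 CPM at day 4, and 3.19 and 1.94 CPM at day 8. L1td1, an RNA-binding protein derived from a LINE-1 element, had 428 and 456 CPM at day 0, 4.85 and 4.20 CPM at day 2 with DMSO, 0.26 and 0.32 CPM at day 4, and 2.83 and 4.52 CPM at day 8. For these genes the main loss came within the first 2 days.

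Lin28a, an RNA-binding protein that blocks let-7 maturation, Trim71 and Sall4 were higher at day 2. Lin28a had 573 and 595 CPM at day 0, 120 and 118 CPM at day 2 with DMSO, 3.54 and 3.13 CPM at day 4, and 44.6 and 58.5 CPM at day 8. Trim71, a ubiquitin ligase and RNA-binding protein that is itself a let-7 target, was at 37.2% of day 0 at day 2 with DMSO, at 4.25% at day 4 and at 14.4% at day 8. Sall4, a zinc finger factor that works with Pou5f1, was at 38.7%, 5.77% and 18.4% at the same times. The day 2 level of these 3 genes lay between 20.3% and 38.7% of day 0, above that of the other 5 regulators, which were at 0.117% to 4.47%. Of those, Zscan10, a zinc finger factor of embryonic stem cells, reached 1.27% of day 0 at day 8, and Pim2, a serine/threonine kinase, 8.90%.

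A 20-gene Nodal signalling list had 6 genes among the 61, and they were all the genes of that list that were lost by day 4. They include the ligand Nodal, the related ligand Gdf3, the co-receptor Tdgf1 (Cripto), the antagonists Lefty1 and Lefty2, and Foxh1, the DNA-binding partner of the Smad proteins. The receptors and Smads of the list were not lost. Acvr1b, the type I receptor, averaged 112 CPM at day 0, 91.5 CPM at day 4 and 138 CPM at day 8. Gdf3 and Tdgf1 stand in both the pluripotency and the Nodal list.

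Both Lefty genes and Nodal differed from most others in that they were high at day 2. Nodal had 26.7 and 27.5 CPM at day 0, 39.5 and 40.7 CPM at day 2 with DMSO, 0.05 and 0.38 CPM at day 4, and 5.12 and 5.33 CPM at day 8. Lefty1 had 170.3 and 157 CPM at day 0, 179 and 197 CPM at day 2 with DMSO, 1.74 and 1.94 CPM at day 4, and 41.0 and 43.8 CPM at day 8. Lefty2 had 11.5 and 10.7 CPM at day 0, 28.4 and 27.4 CPM at day 2 with DMSO, 0.21 and 0.27 CPM at day 4, and 4.43 and 4.68 CPM at day 8. In all 3 genes both day 2 DMSO libraries lay above both day 0 libraries, and the loss fell between day 2 and day 4.

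The co-receptor did not share that course. Tdgf1 had 117 and 123 CPM at day 0, 0.20 and 0.17 CPM at day 2 with DMSO, 0.15 and 0.38 CPM at day 4, and 3.90 and 5.17 CPM at day 8, so that at day 2 Nodal and both antagonists were high where the co-receptor was near its lowest level. Foxh1 was at 34.2% of day 0 and Gdf3 at 8.13% at day 2 with DMSO. Lefty1 and Lefty2 lie next to each other on chromosome 1, with 35915 bases between them, and are close in sequence, so the counting may have shared reads between them. The Foxh1 locus overlaps Kifc2.

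Besides these, 2 more genes had both day 2 DMSO libraries above both day 0 libraries, giving 5 of 61 in all, against 41.5% of the 9436 genes. Prtg, which encodes protogenin, an immunoglobulin-superfamily receptor of early neural and mesodermal tissue, had 102 and 107 CPM at day 0, 379 and 387 CPM at day 2 with DMSO, 7.03 and 7.75 CPM at day 4, and 67.7 and 82.9 CPM at day 8. Its day 2 level was 365% of day 0, the highest of the 61. B3gnt7, a glycosyltransferase that extends sugar chains, was at 125% of day 0 at day 2 with DMSO and at 28.7% at day 8.

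**Figure D2:**
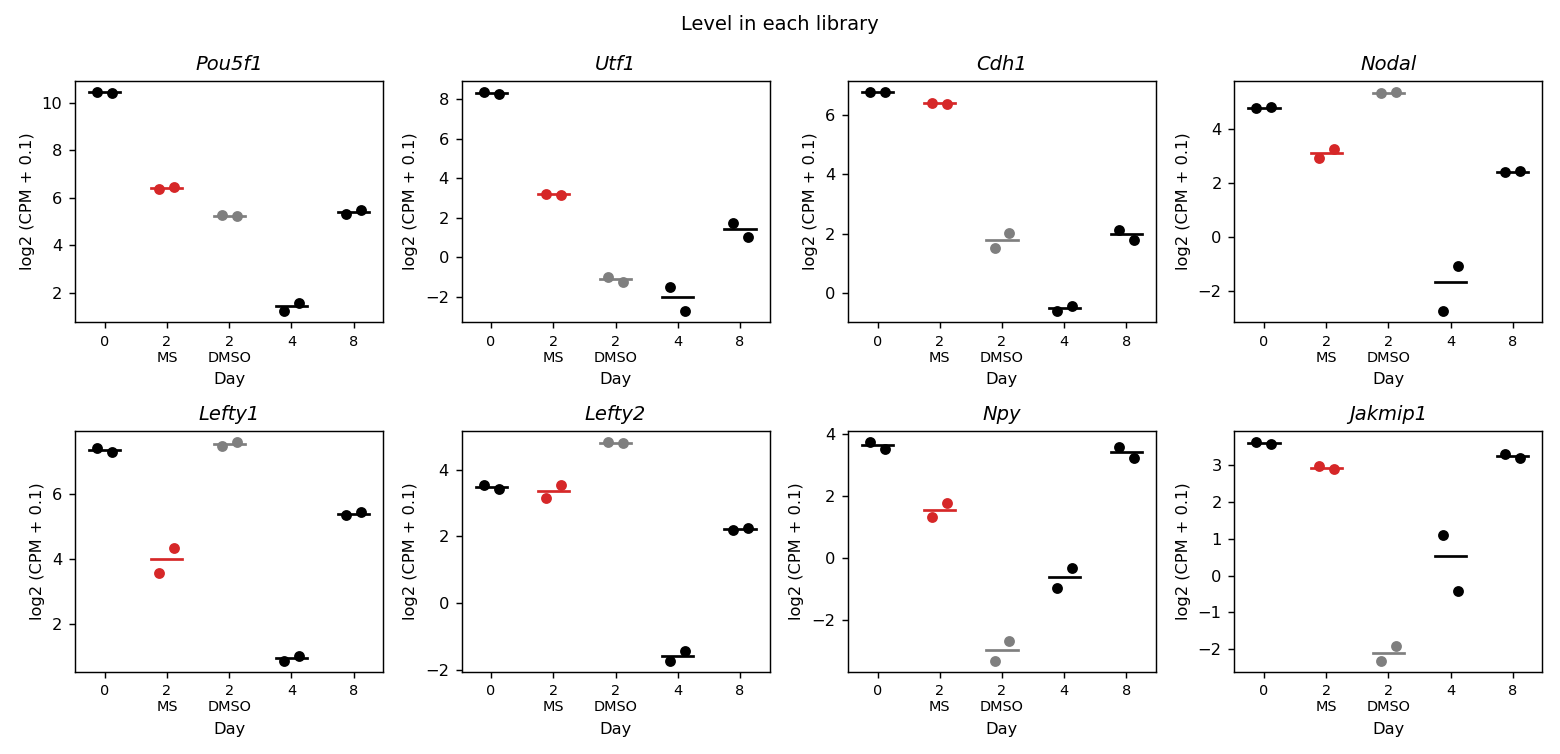
Level of 8 genes in each RNA library, as log2 of CPM plus 0.1, at day 0, day 2 with MS-275 (red), day 2 with DMSO (grey), day 4 and day 8. Dots are single libraries and bars are the group means. Nodal, Lefty1 and Lefty2 are highest at day 2 with DMSO, whereas Npy and Jakmip1 are lowest there.

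The 61 genes included 13 that were grouped as peptides, receptors, channels and other neural genes. The group is loose. It took in Clu, a secreted chaperone, Moxd1, a monooxygenase-like protein, and Spon1, a matrix protein, and left out Cx3cl1 and Ndrg2. The values below depend on these choices. The 13 were grouped by hand after their values were seen. Day 8 values are part of the rule, so their levels are a description. They had a median day 8 level of 41.7% of day 0, with a range of 10.6% to 85.6%, and 5 of the 8 genes that came back to at least 50% were among them. Npy, which encodes neuropeptide Y, had 13.3 and 11.3 CPM at day 0, 0 and 0.06 CPM at day 2 with DMSO, 0.41 and 0.70 CPM at day 4, and 11.8 and 9.22 CPM at day 8. Jakmip1, a microtubule-associated protein that binds GABA-B receptors, had 12.3 and 11.6 CPM at day 0, 0.10 and 0.17 CPM at day 2 with DMSO, 2.05 and 0.64 CPM at day 4, and 9.73 and 8.94 CPM at day 8. The day 8 libraries of Npy overlapped those of day 0, while those of Jakmip1 stayed below them.

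Both genes were lowest at day 2 and not at day 4. In all, 9 of the 61 genes had both day 2 DMSO libraries below both day 4 libraries, against 38.4% of the 9436 genes. Besides Npy and Jakmip1 these were Htr7, a serotonin receptor, Grin2a, an NMDA receptor subunit, Pdzd4, a PDZ domain protein, Ndrg2, Ptpn3, a tyrosine phosphatase, Etv4 and Myh6, the alpha heavy chain of cardiac myosin. Htr7 had 37.8 and 39.9 CPM at day 0, 0.10 and 0.33 CPM at day 2 with DMSO, 2.51 and 3.13 CPM at day 4, and 14.2 CPM in each day 8 library. Pdzd4, the most abundant of the 9 at day 0, had 334 and 341 CPM at day 0, 12.2 and 13.9 CPM at day 2 with DMSO, 32.9 and 32.2 CPM at day 4, and 114 and 98.3 CPM at day 8. In these genes the lowest of the measured levels was at day 2.

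Trh, which encodes the precursor of thyrotropin-releasing hormone, had 41.7 and 35.7 CPM at day 0, 2.04 and 2.26 CPM at day 2 with DMSO, 0.92 and 1.83 CPM at day 4, and 23.9 and 25.2 CPM at day 8, which was 63.4% of day 0. Spon1, a secreted matrix protein of the floor plate, had 39.1 and 38.4 CPM at day 0, 12.7 and 10.6 CPM at day 2 with DMSO, 3.84 and 4.37 CPM at day 4, and 20.7 and 18.9 CPM at day 8. Paqr9, a membrane receptor of the progestin receptor family, came back to 57.5% of day 0, with 7.48 and 6.79 CPM at day 8.

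None of the 61 genes was on the lists of 32 neuronal or 32 synapse genes. Of those lists only Nefh, a neurofilament subunit, was lost by day 4, and its day 8 mean was 4.84 CPM against 1.84 CPM at day 4, under the 3 times of the rule. The genes grouped here as neural were therefore not the general markers, whose summed level in both lists was higher at day 4 than at day 0.

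**Figure D3:**
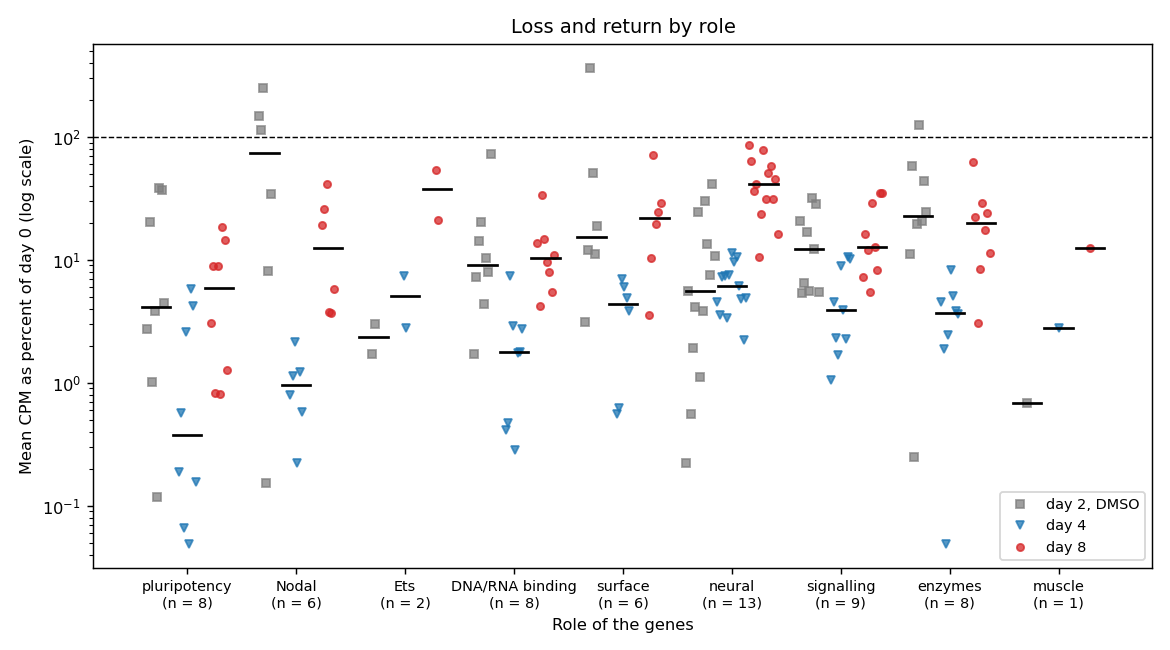
Mean level of each gene as a percent of its day 0 mean (log axis) at day 2 with DMSO, day 4 and day 8, by role, with black bars at the medians and a dashed line at 100%. Day 8 medians run from 5.93% in the pluripotency regulators to 41.7% in the neural genes, and the Nodal genes spread widest at day 2.

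The other genes lay between these courses. Etv4 and Etv5, Ets transcription factors induced by Fgf signalling, were at 1.71% and 3.02% of day 0 at day 2 with DMSO and at 54.2% and 21.1% at day 8. Etv5 had 287 and 281 CPM at day 0, 7.72 and 9.43 CPM at day 2 with DMSO, 9.54 and 6.37 CPM at day 4, and 60.2 and 59.7 CPM at day 8. They were the only lost genes of an 18-gene Fgf and Mapk list, whose summed level was 1106 CPM at day 0, 1013 CPM at day 2 with DMSO, 849 CPM at day 4 and 1105 CPM at day 8.

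Cdh1, which encodes E-cadherin, the adhesion protein of epithelia, had 109 and 108 CPM at day 0, 2.81 and 3.97 CPM at day 2 with DMSO, 0.56 and 0.65 CPM at day 4, and 4.33 and 3.39 CPM at day 8. It was 1 of 7 genes of a 30-gene epithelial list that were lost by day 4 and the only one of them to meet the day 8 condition; Epcam, Cldn6, Esrp1, Krt18, Spint1 and F11r were at 0.103% to 8.45% of day 0 at day 8. Cx3cl1, a membrane-bound chemokine made by neurons, had 127 CPM in each day 0 library, 13.9 and 14.7 CPM at day 2 with DMSO, 6.0 and 6.42 CPM at day 4, and 33.3 and 29.5 CPM at day 8. Cbs, the enzyme that condenses homocysteine with serine, came back to 62.2% of day 0, with 60.4 and 56.1 CPM at day 0, 5.82 and 7.07 CPM at day 2 with DMSO, 2.82 and 2.48 CPM at day 4, and 36.4 and 36.1 CPM at day 8.

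The abundant genes Plcg2 and Rbpms2 came back little. Plcg2, a phospholipase that acts below receptors, had 393 and 380.0 CPM at day 0 and stood at 20.6% of day 0 at day 2 with DMSO, 1.06% at day 4 and 7.2% at day 8. Rbpms2, an RNA-binding protein of smooth muscle precursors, was at 7.98%, 1.79% and 5.50% at those times. Myh6 had 11.8 and 12 CPM at day 0 and 1.65 and 1.31 CPM at day 8, and it was 1 of 5 lost genes of a 20-gene cardiac and smooth muscle list, and the only one of them that met the day 8 condition. Of the remaining genes, which the naming rule did not pick, day 8 levels ran from 3.08% of day 0 in Cyp2b23, a cytochrome P450, to 45.4% in Moxd1, a monooxygenase-like protein.

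MS-275 is the contrast that the choice of the genes did not use. At day 2, 41 of the 61 genes rose with MS-275 over DMSO and 10 fell, with 10 not called (edgeR quasi-likelihood test on 17789 genes, Benjamini-Hochberg threshold of 0.05, n = 2 libraries per group). Among all genes tested, 31.9% rose and 31.4% fell, or 63.3% either way. Both MS-275 libraries lay above both DMSO libraries in 45 of the 61 genes (41.9% of the 9436 genes) and below them in 10 (44.2%). Of the 61 genes, 38 rose at least 2-fold and 6 fell at least 2-fold. The median log2 fold change was 1.20 for the 61 genes and 0.01 for all genes tested. Fold changes used TMM factors, while the printed CPM use library totals: without TMM factors the median of all genes is 0.14, and 6713 genes rise and 4252 fall over all genes, where the TMM scaling gives 5677 and 5579. Without those factors, 42 of the 61 genes rise and 9 fall.

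Most genes lost and not regained rose as well. Of those 203, 156 rose and 19 fell, with a median log2 fold change of 1.30. A higher level with MS-275 was therefore common among genes lost by day 4, whether or not they came back. No test of the difference between these sets was made.

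**Figure D4:**
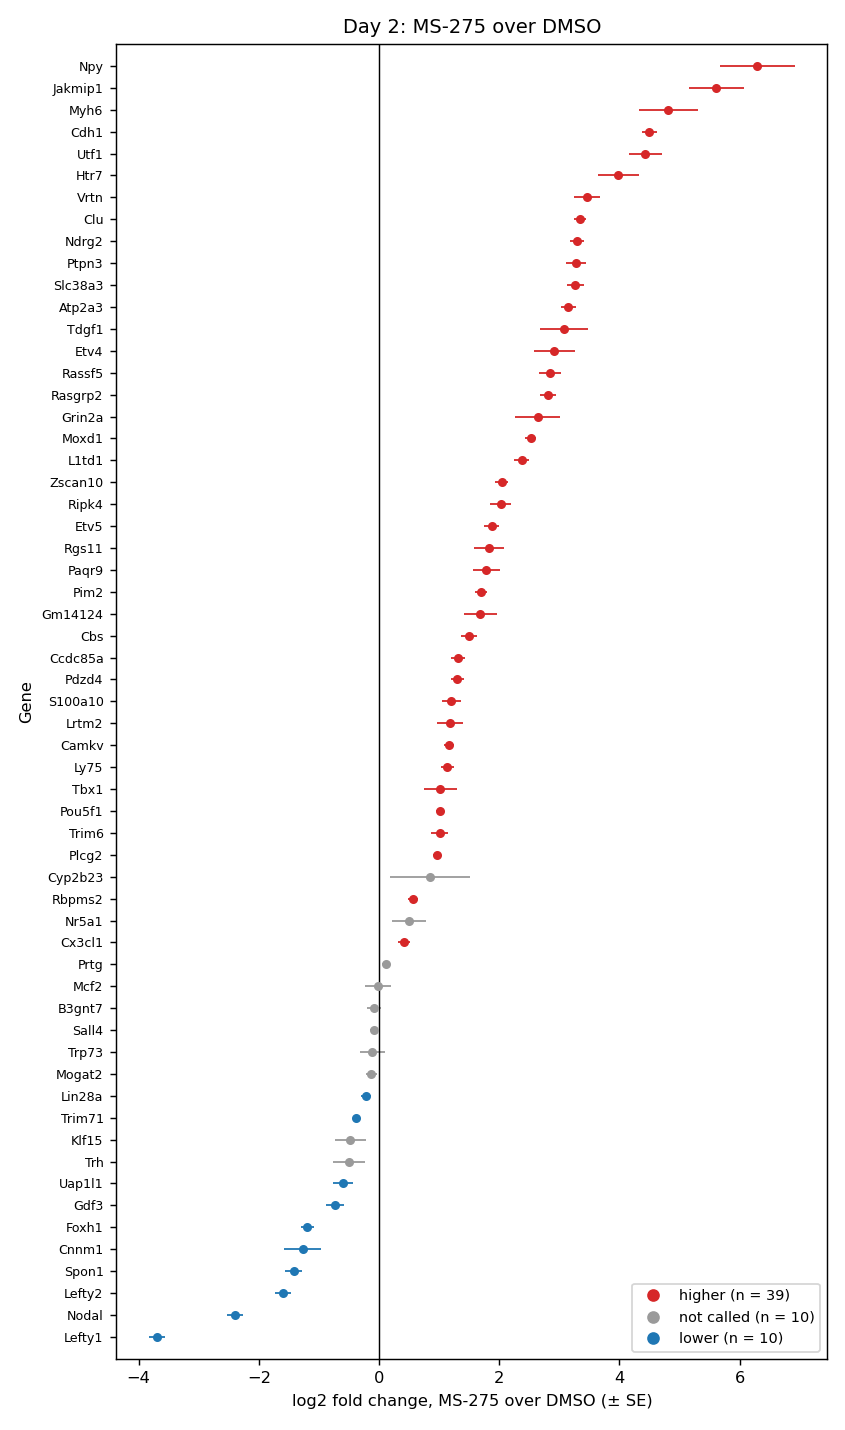
Log2 fold change of 59 of the 61 genes, MS-275 over DMSO at day 2, from edgeR, with standard errors derived from the F statistic. Red genes rose, blue genes fell and grey genes were not called. Values run down to -3.69 in Lefty1; Npy and Myh6, with 1 and 3 DMSO reads, are drawn at fitted values that depend on the prior count.

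Cdh1, Utf1 and Jakmip1 were among the genes that rose. Cdh1 had 84.9 and 83.0 CPM with MS-275 against 2.81 and 3.97 CPM with DMSO (log2 fold change 4.50 ± 0.12 SE, adjusted p = 5.9e-14), or 77.2% of day 0 with MS-275 and 3.12% with DMSO. Utf1 had 9.12 and 8.78 CPM with MS-275 against 0.41 and 0.33 CPM with DMSO (4.43 ± 0.27, adjusted p = 6.5e-10). Jakmip1 had 7.66 and 7.35 CPM with MS-275 against 0.10 and 0.17 CPM with DMSO (5.62 ± 0.46, adjusted p = 1.9e-08). In each of the 3 the groups were far apart next to the spread within them. The DMSO libraries together held 14 reads of Utf1 and only 5 of Jakmip1, so the size of these folds is uncertain. For Jakmip1 the ratio per library total was 56.5, with a 95% counting interval of 23.9 to 175.

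Npy and Myh6 had too few reads in DMSO cells for a fitted fold. Npy had 107 reads in the MS-275 libraries against 1 in the DMSO libraries, a ratio per library total of 107 with a 95% counting interval of 18.8 to 4270. Myh6 had 100 reads against 3, a ratio of 33.4 with an interval of 11.1 to 165. Both passed the test (adjusted p = 2.1e-07 for Npy and 3.0e-07 for Myh6). The intervals cover counting error only.

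Htr7, Vrtn and Clu followed. Htr7 had 3.45 and 4.15 CPM with MS-275 against 0.10 and 0.33 CPM with DMSO, the latter from 8 reads (adjusted p = 3.5e-08, edgeR). Its log2 fold change of 3.98 was 3.35 without DMSO replicate 1 and 4.99 without DMSO replicate 2. Vrtn, a factor that sets vertebral number in pigs, had 15.2 and 14.4 CPM with MS-275 against 1.33 and 1.1 CPM with DMSO (3.46 ± 0.21, adjusted p = 5.4e-10). Clu, which encodes the secreted chaperone clusterin, had 58.0 and 55.3 CPM with MS-275 against 4.70 and 5.46 CPM with DMSO (3.34 ± 0.10, adjusted p = 2.6e-13), and so stood above its day 0 level.

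Clu was 1 of 8 genes with both MS-275 libraries above both day 0 libraries, against 42.9% of the 9436 genes. The others were Prtg, Ly75, Moxd1, B3gnt7, Slc38a3, Trim6 and Atp2a3. Atp2a3, a calcium pump of the endoplasmic reticulum, went furthest among those that rose, with 70.3 and 67.9 CPM with MS-275 and 14.3 and 17.8 CPM at day 0. Slc38a3, a glutamine transporter, had 50.4 and 48.8 CPM with MS-275 and 23.3 and 21.8 CPM at day 0. Prtg and B3gnt7 were already above day 0 with DMSO and were not called between MS-275 and DMSO (log2 fold changes 0.12 and -0.08, adjusted p = 0.11 and 0.55, edgeR).

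The pluripotency regulators split. Pou5f1 had 82.5 and 86.8 CPM with MS-275 against 39.0 and 36.9 CPM with DMSO (log2 fold change 1.02 ± 0.07, adjusted p = 1.2e-09), which left it at 6.11% of day 0. L1td1 (2.37 ± 0.13), Zscan10 (2.04 ± 0.10) and Pim2 (1.69 ± 0.10) rose as well. Trim71 fell a little (-0.38 ± 0.06, adjusted p = 3.0e-05), and Sall4 was not called (-0.08 ± 0.07, adjusted p = 0.33). Lin28a passed the test by a small margin (-0.21 ± 0.08, adjusted p = 0.031) and did not pass it without MS-275 replicate 2 (adjusted p = 0.19, edgeR), without DMSO replicate 1 (0.11) or without DMSO replicate 2 (0.08).

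Over the whole pluripotency list, 20 of 30 tested genes rose and 8 fell. Sox2, a transcription factor shared by pluripotent and neural progenitor cells, was among those that fell, with 86.0 CPM with MS-275 and 191 CPM with DMSO. Of the marker lists of other cell types, only the neural stem and progenitor list had more falls than rises. In the cardiac and smooth muscle list 11 of 17 tested genes rose and 2 fell. The fibroblast and mesenchyme list had 11 of 17 higher and 3 lower, and the germline and meiosis list 8 of 12 higher and 2 lower. In the neural stem and progenitor list 8 of 27 tested genes rose and 16 fell, and in the neural crest list 8 of 15 rose and 5 fell. Of 26 tested epithelial genes 23 rose and 1 fell, and the list summed to 825 and 860.0 CPM with MS-275 against 287 and 300.3 CPM with DMSO. Of 13 tested extraembryonic endoderm and trophectoderm genes 11 rose and 0 fell, and the 18-gene list summed to 536 and 545 CPM with MS-275 against 218 and 220.0 CPM with DMSO, with Ttr at 0 in both arms. The part of such markers in the values of the 61 genes was not tested.

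Nodal signalling went the other way. Lefty1 had 11.8 and 20.1 CPM with MS-275 against 179 and 197 CPM with DMSO (log2 fold change -3.69 ± 0.14, adjusted p = 2.4e-12), a 12.9-fold lower level. Nodal had 7.48 and 9.31 CPM with MS-275 against 39.5 and 40.7 CPM with DMSO (-2.39 ± 0.13, adjusted p = 2.0e-10). Lefty2 had 8.70 and 11.6 CPM with MS-275 against 28.4 and 27.4 CPM with DMSO (-1.59 ± 0.14, adjusted p = 3.2e-08). With MS-275 these 3 genes were at 9.74% (Lefty1), 31.0% (Nodal) and 91.7% (Lefty2) of day 0, and all 3 were above day 0 with DMSO.

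Foxh1 (15.1 and 19 CPM with MS-275 against 35.8 and 35.4 CPM with DMSO, -1.19 ± 0.11, adjusted p = 6.6e-08) and Gdf3 (4.72 and 4.63 CPM against 7.51 and 6.57 CPM, -0.73 ± 0.15, adjusted p = 5.7e-04) fell too. Tdgf1 was the exception, with 1.77 and 1.79 CPM with MS-275 against 0.20 and 0.17 CPM with DMSO (3.08 ± 0.40, adjusted p = 4.4e-06, edgeR). Its DMSO libraries together held 7 reads. Over the Nodal list 14 of 17 tested genes fell and 2 rose. The 11 tested genes of that list outside the 61 included Smad3, a signal transducer that fell to 38.3 CPM with MS-275, against 92.9 CPM with DMSO (log2 fold change -1.42), and Acvr2b, a type II receptor that fell to 33.6 CPM, against 75 CPM (-1.29). Acvr1b, a type I receptor, rose to 126 CPM with MS-275, against 70.1 CPM with DMSO (0.71), and Smad7 was not called (0.05).

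Outside the Nodal and pluripotency genes, 3 genes fell with MS-275. Spon1 had 4.56 and 5.0 CPM with MS-275 against 12.7 and 10.6 CPM with DMSO (-1.42 ± 0.14, adjusted p = 1.5e-07). Cnnm1, a membrane protein of the cyclin M family, had 1.01 and 2.23 CPM against 4.24 and 2.87 CPM (adjusted p = 0.0020, edgeR). Its log2 fold change of -1.27 ran from -1.96 (without MS-275 replicate 2) to -0.81 with 1 library left out. Uap1l1, a sugar nucleotide enzyme, fell by 0.60 on the log2 scale (adjusted p = 0.0049, edgeR), a call that was not made without DMSO replicate 1 (adjusted p = 0.068). Of the 13 genes grouped by hand as neural and neuroendocrine, 11 rose, Spon1 fell and Trh was not called (1.54 and 1.81 CPM with MS-275 against 2.04 and 2.26 CPM with DMSO, -0.50 ± 0.27, adjusted p = 0.12). In the neuron list, which holds none of the 61, 14 of 32 genes rose and 10 fell. The synapse list, which also holds none of them, had 22 of 32 genes higher and 4 lower.

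Of 9 signalling genes 8 rose, among them Ndrg2, a stress-linked protein of the brain (43.5 and 41.5 CPM with MS-275 against 3.93 and 3.97 CPM with DMSO), Rasgrp2, an activator of Rap (30.2 and 32.5 CPM against 4.14 and 3.97 CPM) and Ptpn3 (21.1 and 17.7 CPM against 1.53 and 2.10 CPM). Both Ets factors rose, Etv4 to 3.18 and 3.09 CPM with MS-275 against 0.36 and 0.39 CPM with DMSO and Etv5 to 36.3 and 32.7 CPM against 7.72 and 9.43 CPM. The 10 genes that were not called were Cyp2b23, Nr5a1, Prtg, Mcf2, B3gnt7, Sall4, Trp73, Mogat2, Klf15 and Trh. Nr5a1, the steroidogenic factor, had 1.70 and 2.34 CPM with MS-275 against 1.23 and 1.38 CPM with DMSO, and 8.63 and 12.2 CPM at day 8.

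Peak lists gave the marks at these genes. A RefSeq start was at hand for 41 of the 61 genes, and in 25 of these it matched the end of the gene in the gene table to within 1 base, while in 9, Jakmip1 among them, it lay more than 1000 bases away. A second measure, added after the lists had been seen, took a peak in the gene or within 1000 bases of it, and covers all 61. With 1 library per mark and arm at day 2, none of these comparisons has a test, and how deeply the ChIP and ATAC samples were sequenced is unknown.

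Open chromatin was mapped at day 4 by ATAC-seq. A day 4 ATAC peak in both replicates lay within 1000 bases of the start in 15 of 41 genes (20 with replicate 2 alone), against 50.3% of all protein-coding genes and 86.0% of those with at least 10 CPM at day 0. Over the whole gene it was 28 of 61 (57.6% of all protein-coding genes, 91.5% of those with at least 10 CPM at day 0). At day 4 H3K9ac lay at the start in 31 of 41 genes (61.7% of all protein-coding genes, 96.5% of those with at least 10 CPM at day 0) and H3K9cr in 30 of 41 (60.6% and 96.2%). For H3K18la it was 19 of 41 (51.1% and 87.0%). Over the whole gene H3K9ac was present in 53 of 61 genes (68.1% and 99.1%), H3K9cr in 50 (66.3% and 98.9%) and H3K18la in 38 (59.6% and 91.8%).

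At day 2 more of the starts carried an H3K9ac or H3K9cr peak. H3K9ac peaks were at 37 of 41 starts with MS-275 and 34 with DMSO, against 65.8% and 60.2% of all protein-coding genes. In genes with at least 10 CPM at day 0, as all 61 have, these shares were 97.3% and 96.3%. H3K9cr peaks were at 37 and 35 starts, against 64.9% and 60.2% of all protein-coding genes and 97.2% and 96.2% of the day 0 set. H3K18la peaks were at 17 of 41 starts with MS-275 and 33 with DMSO (20.5% and 52.2% of all protein-coding genes, 32.0% and 88.3% of the day 0 set). Over the whole gene, H3K9ac was at 59 of 61 genes with MS-275 and 55 with DMSO (73.4% and 66.1% of all protein-coding genes), H3K9cr at 59 and 56 (72.2% and 65.8%), and H3K18la at 35 and 52 (32.2% and 61.4%). In the day 0 set these shares were 99.3% and 99.0% for H3K9ac, 99.3% and 99.0% for H3K9cr, and 42.7% and 93.2% for H3K18la.

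Few starts gained or lost H3K9ac or H3K9cr between the arms. An H3K9ac peak stood in the MS-275 list alone at 3 starts (5.89%), those of Atp2a3, Jakmip1 and Trh, and in the DMSO list alone at 0 (0.298%). For H3K9cr these were 2 (5.21%) and 0 (0.513%). A DMSO peak without a peak in both day 4 replicates stood at 3 starts for H3K9ac (0.589%) and 5 for H3K9cr (1.06%). For H3K18la, 2 of 41 starts had a peak in the MS-275 list alone (1.9%), 18 of 41 starts had a peak in the DMSO list alone (33.6%, and 57.3% of genes with at least 10 CPM at day 0), and 15 of 41 had a DMSO peak but not a peak in both day 4 replicates (5.47%). That last share was 22% in the genes lost and not regained.

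**Figure D5:**
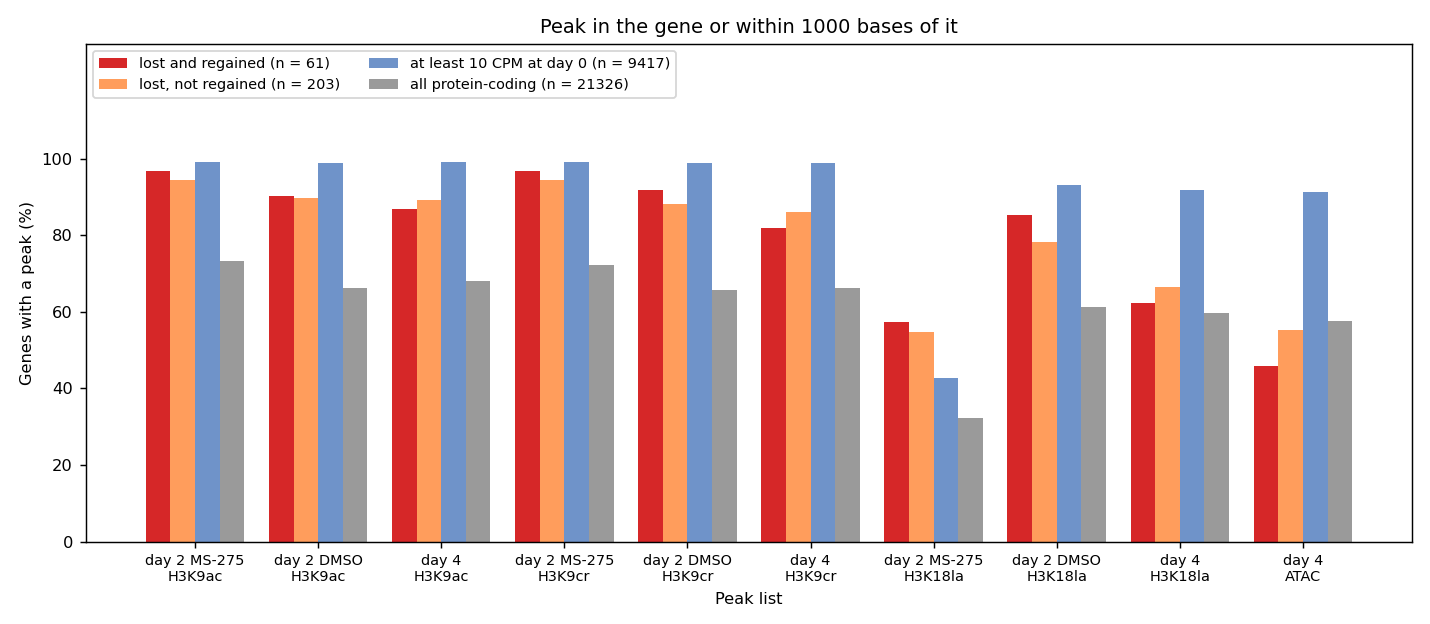
Percent of genes with a peak in the gene or within 1000 bases of it, in each peak list (at day 4, in both replicates), for the 61 genes lost and regained, the 203 lost and not regained, protein-coding genes with at least 10 CPM at day 0 and all protein-coding genes. The 61 genes reach 96.7% for H3K9ac with MS-275 and 45.9% for day 4 ATAC, the only list in which they lie below all other sets.

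The regions under H3K9ac peaks were longer with MS-275. In 59 of 61 genes more bases lay under H3K9ac peaks with MS-275 than with DMSO, against 71.4% of all protein-coding genes and 96.8% of those with at least 10 CPM at day 0. The median was 5954 bases with MS-275 and 1604 bases with DMSO, where genes with at least 10 CPM at day 0 had 4228 and 2209 bases. The MS-275 list as a whole held 84418 peaks over 122012624 bases, and the DMSO list 26555 peaks over 34200086 bases. The part of list size in the gene values was not tested. More bases lay under H3K9cr peaks with MS-275 in 59 genes (69.5%) and under H3K18la peaks in 13 (7.46%). In genes with at least 10 CPM at day 0 these shares were 96.0% and 4.70%. The H3K18la lists held 31577 peaks over 16327121 bases with MS-275 and 36382 peaks over 26848613 bases with DMSO. H3K18la covered 299 bases with MS-275 and 829 bases with DMSO (medians over the 61 genes).

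Single genes showed the range. At Pou5f1 the authors' lists had an H3K9ac peak at chr17:35500408-35508427 with MS-275 (fold enrichment 19.2 over local background, the authors' value) and at chr17:35505882-35507632 with DMSO (fold enrichment 7.06), both overlapping the promoter printed above. At day 4 no H3K9ac, H3K9cr or ATAC peak lay within 1000 bases of that start in either replicate. At Cdh1 the MS-275 list had 19 H3K9ac peaks over 17740 bases and the DMSO list 1 peak of 881 bases, chr8:106603225-106604105.

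Peaks were also taken where they touched a span from 1000 bases before the gene to 1000 bases after it. Their bases are full peak lengths, which can reach outside the span. By that measure Lefty2 had H3K9ac and H3K9cr peaks with MS-275, of 12152 and 14311 bases in all, and none with DMSO or at day 4. The RNA of Lefty2 was lower with MS-275. Lefty1 had such peaks in all 3 conditions. In their own spans Gdf3 and Vrtn had an H3K9ac peak in both day 2 lists and none in either day 4 replicate. Npy had an H3K9ac peak at its start in every list, with fold enrichments of 15.7 with MS-275, 14.4 with DMSO, and 18.2 and 16.8 at day 4, while its RNA was at 1 read in 2 DMSO libraries. Cyp2b23 and Gm14124 had no H3K9ac or H3K9cr peak in that span in any list.

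The promoter sequences of the 41 genes were mixed. A GC box (GGGCGG) was present in 25 of 41, or 61.0%, against 46.9% of all protein-coding promoters and 69.3% of those of genes with at least 10 CPM at day 0. Utf1 has 4 of them, the first 2 overlapping, and Prtg 3, as printed above. A CCAAT box (CCAAT) was in 43.9% against 39.0% of all. An E-box (CACGTG) was in 6 of 41, or 14.6%, against 7.99%, and a TATA box (TATAAA) in 3 of 41, or 7.32%, against 13.2%. In genes with at least 10 CPM at day 0 these shares were 39.7%, 11.3% and 5.84%.

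The rarer motifs were each in few promoters. The octamer part (ATGCAAA) was in Pim2 and Gm14124, the Sox site (AACAAAG) in Nodal and Trh, which is 4.88% for each motif against 4.17% and 4.98% of all protein-coding promoters. The exact letters of the orphan nuclear receptor site (AAGGTCA) and the AP-1 site (TGACTCA) were in 0 of 41, against 3.97% and 4.61%. Variants of a site were not searched for, so a promoter without the exact letters may still hold one. The shares in genes with at least 10 CPM at day 0 were 2.95%, 3.52%, 2.56% and 2.74%, in the order named. Observed over expected CpG had a median of 0.622 in the 41 promoters, against 0.586 in all protein-coding promoters and 0.807 in those of genes with at least 10 CPM at day 0. It was 0.374 in Pou5f1 and 0.229 in Nodal, and 0.796 in Prtg.

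Place in the genome set few of the 61 genes together. They lay on 19 chromosomes, with at most 7 on 1 chromosome, and Lefty1 and Lefty2 and the pair Camkv and Slc38a3, 266883 bases apart, were the only pairs within 1000000 bases of each other. In 19 of the 61 the gene overlapped another annotated gene, and whether the counting used strand is not stated, so reads of such partners cannot be told apart.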

How the data were processed

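RNA-seq values are estimated counts per gene that the authors deposited. The submitters' processing notes name Salmon 1.1.0, DESeq2 1.26.0, Bowtie2 2.4.1, MACS2 2.2.7.1 and the GRCm38 build. Not given in the sources used here are annotation release and strand setting. The deposited peak lists give, per the file headers, a pileup signal, a -log10 p and q, and a fold enrichment ratio for each peak.

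Between 19.2% and 25.8% of the estimated counts per library were not whole, and all were rounded. MS-275 was compared with DMSO by edgeR 4.0.16 (quasi-likelihood, TMM, filterByExpr, all 10 RNA libraries sharing 1 spread, Benjamini-Hochberg) in R 4.3.3, with DESeq2 1.42.0 as an alternative; tables and figures used Python 3.11.15. The SE of a log2 fold change was taken as its absolute value over the square root of the F statistic of the test. On simulated counts for 17789 genes the fit was tested with known changes. Protein-coding status came from RefSeq by symbol. A promoter peak overlaps, by 1 base or more, the 1000 bases on either side of a start. At day 4 a gene counts as marked when both replicates have a peak. Input libraries were not used.

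The 61 genes, the 18 gene lists and the roles were chosen with earlier results of these data known. Genes named are the 12 highest at day 0, the 8 with the highest day 8 share of day 0, the 8 largest rises and falls with MS-275, all in the pluripotency and Nodal lists, up to 3 per other list, up to 5 with the most peak lists, and the 2 nearest each limit on either side; others were named after their values were seen. A few genes are counted but not reported here by name. The series describes biological replicates, with no further detail, so p-values measure the spread between these libraries.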

Additional observations from a re-analysis of the deposited data

How the results depend on the processing

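With 2 libraries per group and 1 ChIP library per mark and arm at day 2, small changes and single peaks are the least certain values. A 5-fold return at day 8 left 35 genes, a 2-fold return 91, and leaving out 1 library 53 to 65, the lowest without day 8 replicate 2. The median day 2 DMSO level was 10.9% to 11.5% of day 0 with 1 library left out. Under MS-275, 53 of the 61 genes kept direction and call in every alternative. Lin28a was not called with RLE size factors (-0.19) or with library totals (-0.07, an alternative chosen after seeing the data), nor Uap1l1 with DESeq2 (-0.58), and Prtg was called with the 4 day 2 libraries alone (0.15) and with library totals (0.26). Genes without a call changed sign: with library totals Sall4 (0.0531), Mogat2 (0.0108), Trp73 (0.0278), B3gnt7 (0.053) and Mcf2 (0.12), and Mcf2 also with RLE size factors (0.0087), the 4 day 2 libraries (0.009) and DESeq2 (0.0085). With 1 library left out, Trp73 ran from -0.30 to 0.10, B3gnt7 from -0.22 to 0.0546 and Mcf2 from -0.22 to 0.15. The cause was not tested. H3K18la with MS-275 was at 11 of 41 starts within 500 bases, and at 2792 starts of all protein-coding genes. With a -log10 q of at least 5 these counts were 13 and 1821. The replicate block gave 41 genes higher and 10 lower among the 61, and 5607 and 5575 over all genes, and changed no call of the 61. The replicate numbers are shared only as numbers: correlations of same-numbered libraries' deviations between groups ran from -0.03 to 0.04.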

Other observations

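Among the 203 genes lost by day 4 and not regained, 38 had both MS-275 libraries above both day 0 libraries. This order held for 42.9% of the 9436 genes with at least 10 CPM at day 0, a larger share. Cldn6, a tight junction protein, averaged 58.0 CPM with MS-275, 0.34 CPM with DMSO and 19.3 CPM at day 0. Krt18, a keratin of simple epithelia, averaged 57.8 CPM with MS-275, 9.51 CPM with DMSO and 11.4 CPM at day 0. Both were chosen after their values were seen.

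One gene that is not protein-coding met the same limits. The long non-coding RNA 2810429I04Rik had 13.3 and 15.0 CPM at day 0, 7.35 and 7.34 CPM at day 2 with DMSO, 1.03 and 1.51 CPM at day 4, and 3.30 and 4.41 CPM at day 8. At day 2 it had 7.21 and 6.91 CPM with MS-275.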
